A study of Mus musculus with 21 samples.

Results

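C-type lectin receptors of myeloid cells are surface proteins with a carbohydrate-recognition fold through which macrophages, dendritic cells, neutrophils and platelets sense fungi, mycobacteria and dying cells. RNA from 10 of their genes was followed here in mouse bone marrow progenitors: *Clec7a*, *Clec9a*, *Clec1b*, *Clec5a*, *Clec4e*, *Clec4d*, *Clec4n*, *Clec12a*, *Clec4a2* and *Clec10a*. They were chosen by name, as 10 of the 47643 genes in the count table, with earlier results of these data known. The shares of all genes given below are thus set beside a list that was not picked blind to the data. The progenitors came from C57/B6 mice aged 8 to 12 weeks and were sorted by flow cytometry, then read by bulk RNA-seq in 21 libraries, 3 for each of 7 populations. Both progenitors sorted were c-Kit+ and CD34+ and lacked lineage markers and Sca-1: granulocyte-monocyte progenitors (GMPs) bore CD16/32, and common myeloid progenitors (CMPs) did not. Both were cut further by the level of CD62L on the cell surface. The populations were CD62L-high, CD62L-int, CD62L-neg and bulk GMPs, and CD62L-high, CD62L-neg and bulk CMPs. CD62L-neg GMPs were the negative to dim end of the GMP gate, and CD62L-int and CD62L-high GMPs the lowest and highest ends of the CD62L-positive cells. The sample labels use the word low for the CD62L-neg CMPs and for the CD62L-int GMPs. The labels name no engineered allele and no treatment. Whether the 3 libraries of a population came from separate mice is not given in the sources used here, so p-values measure the spread between libraries, which may be technical.

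These receptors differ in how they signal. CLEC7A (Dectin-1, which binds fungal beta-glucan), CLEC9A (which binds actin exposed by dead cells) and CLEC1B (CLEC-2, the podoplanin receptor of platelets) carry a tyrosine motif of their own that recruits the kinase SYK. CLEC5A signals through the adaptor DAP12, encoded by *Tyrobp*, while CLEC4E (Mincle), CLEC4D (MCL) and CLEC4N (Dectin-2) use the Fc receptor gamma chain, encoded by *Fcer1g*. CLEC12A, a receptor for uric acid crystals, and CLEC4A2 (DCIR) carry inhibitory motifs that recruit the phosphatases SHP-1 and SHP-2. CLEC10A binds galactose-type sugars and is known for uptake of ligands by dendritic cells and macrophages.

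Of the 10 genes, 8 lie on chromosome 6 in 2 clusters (coordinates on GRCm38, GENCODE vM21). *Clec4a2* (chr6:123106428-123143999, plus strand), *Clec4n* (chr6:123229843-123247021, plus), *Clec4d* (chr6:123262111-123275265, plus) and *Clec4e* (chr6:123281789-123289870, minus) fall within 183.4 kb. *Clec12a* (chr6:129342691-129365303, plus), *Clec1b* (chr6:129397297-129409335, plus), *Clec9a* (chr6:129408862-129424763, plus) and *Clec7a* (chr6:129461591-129472779, minus) fall within 130.1 kb. *Clec5a* (chr6:40574894-40585821, minus) and *Clec10a* (chr11:70156197-70170834, plus) stand alone. *Clec1b* and *Clec9a* overlap on the same strand and share 184 exon bases, so their counts are uncertain there. The annotation calls *Clec7a* a polymorphic pseudogene and the other 9 protein coding, and *Clec4a2* has close paralogs that could share reads with it.

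Promoters are shown for 4 genes whose patterns below differ: *Clec12a*, *Clec5a* and *Clec7a*, which were higher in CD62L-high than in CD62L-neg CMPs, and *Clec1b*, whose highest level was in CD62L-neg CMPs. Each runs from 250 bases before to 50 after a RefSeq start (GRCm38.p6), and 8 of the 10 genes had one. Capitals mark matches, on either strand, to GAGGAA (a core of the sites bound by the myeloid factor PU.1), to TTGNNNAA (as in sites of C/EBP factors) or to AGATAA and TGATAA (as in GATA sites). No matches to different motifs overlapped.
Clec12a (chr6:129349994-129350293, plus strand): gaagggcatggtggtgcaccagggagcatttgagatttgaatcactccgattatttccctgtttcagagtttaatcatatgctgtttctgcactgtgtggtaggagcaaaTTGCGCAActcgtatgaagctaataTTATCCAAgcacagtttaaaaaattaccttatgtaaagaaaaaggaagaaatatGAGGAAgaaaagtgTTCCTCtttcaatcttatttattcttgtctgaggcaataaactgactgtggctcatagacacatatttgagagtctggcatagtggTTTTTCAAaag
Clec5a (chr6:40585756-40586055, minus strand): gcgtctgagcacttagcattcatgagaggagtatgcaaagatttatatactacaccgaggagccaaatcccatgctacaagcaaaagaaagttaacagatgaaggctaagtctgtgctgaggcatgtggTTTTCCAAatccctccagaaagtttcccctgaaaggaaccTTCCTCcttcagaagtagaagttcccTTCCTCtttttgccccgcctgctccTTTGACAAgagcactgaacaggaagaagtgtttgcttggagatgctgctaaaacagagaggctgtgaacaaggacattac
Clec7a (chr6:129472730-129473029, minus strand): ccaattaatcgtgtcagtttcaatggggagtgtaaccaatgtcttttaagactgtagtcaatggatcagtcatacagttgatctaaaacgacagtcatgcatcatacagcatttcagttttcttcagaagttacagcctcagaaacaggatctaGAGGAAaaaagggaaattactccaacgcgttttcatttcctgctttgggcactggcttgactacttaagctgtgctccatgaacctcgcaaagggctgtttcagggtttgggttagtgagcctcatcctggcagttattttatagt
Clec1b (chr6:129397047-129397346, plus strand): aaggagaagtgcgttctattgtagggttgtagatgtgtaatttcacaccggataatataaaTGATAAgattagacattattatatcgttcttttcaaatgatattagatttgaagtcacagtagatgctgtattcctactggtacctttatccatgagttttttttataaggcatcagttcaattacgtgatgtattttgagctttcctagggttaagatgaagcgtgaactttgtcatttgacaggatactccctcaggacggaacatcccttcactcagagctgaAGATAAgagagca
GAGGAA was present in 5 of the 8 promoters (*Clec12a*, *Clec5a*, *Clec7a*, *Clec4d* and *Clec4e*) and in 28.3% of all 32851 promoters of this length. TTGNNNAA was present in 4 of 8 (*Clec12a*, *Clec5a*, *Clec4d* and *Clec4e*) against 36.7% of all. The GATA letters were present in *Clec1b* alone of the 8, with 2 matches, against 18.6% of all promoters. Matches did not follow the direction of change in CMPs throughout. *Clec9a*, higher in CD62L-high CMPs, had no match to any of these letters, and neither had *Clec4a2*. *Clec4d*, lower in CD62L-high CMPs, had 3 matches to GAGGAA and 2 to TTGNNNAA. A match describes letters in this window and is not a binding site.

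Libraries held 6145834 to 15263573 counts, and the CD62L-neg CMP libraries (7062317 to 7509818) were shallower than the CD62L-high CMP libraries (11683991 to 14650082). Bulk CMP replicate 2 stood apart, with 61.0% of its counts in 3 gene models (*Gm23935*, *Gm26917* and *Gm42418*) and 30.7% in protein-coding genes. CD62L-high GMP replicate 1 had 41.1% in those models, and the other 19 libraries 22.4 to 31.7%. Levels are given as CPM, counts scaled to a common library size after TMM normalisation. *Fcgr3*, which encodes CD16, averaged 139 to 169 CPM in the GMP populations and 7.88 to 14.99 CPM in the CMP populations. In bulk RNA, fewer cells of a type and less RNA per cell cannot be told apart.

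The receptor genes covered a wide range of levels. Per kilobase of exon, the highest population mean was 32.8 CPM/kb for *Clec12a* in CD62L-int GMPs, followed by 25.7 for *Clec7a* in CD62L-high GMPs and 12.5 for *Clec5a* in CD62L-high GMPs. *Clec4a2* (4.95 CPM/kb, CD62L-neg GMPs), *Clec4d* (4.70, CD62L-neg CMPs), *Clec4e* (4.27, bulk CMPs), *Clec9a* (3.29, CD62L-high CMPs) and *Clec10a* (2.02, CD62L-high GMPs) were intermediate. *Clec1b* reached 0.415 CPM/kb in CD62L-neg CMPs. *Clec4n* had 10 counts over all 21 libraries, with 3 in CD62L-high CMP replicate 2, 5 in bulk GMPs and 2 in bulk CMPs. The other 4 populations had 0 counts of *Clec4n* each, which allows up to 3.69 counts per population (exact Poisson interval, 95%). Such intervals cover counting error only. *Clec4n* was removed by the filter on low counts, so 9 of the 10 genes were tested.

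**Figure D1:**
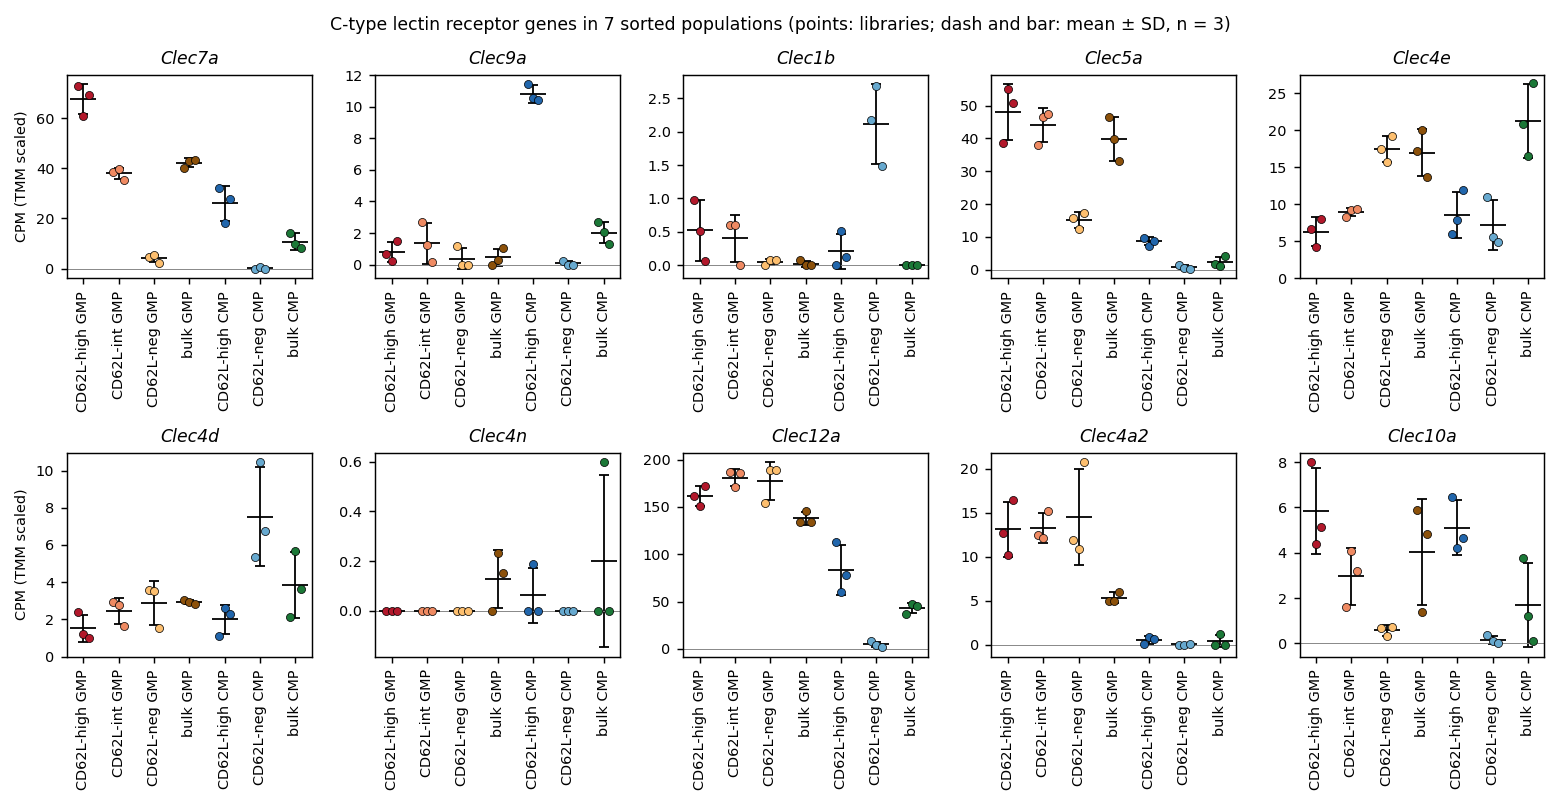
Level of each of the 10 receptor genes (vertical axes, CPM, linear, one panel per gene) in the 7 populations (horizontal axis). Points are libraries and bars the mean ± SD of 3 libraries. *Clec7a*, *Clec5a* and *Clec12a* had their lowest means in CD62L-neg CMPs, at 0.255, 0.747 and 4.66 CPM, whereas *Clec1b* and *Clec4d* had their highest means there.

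The first question was how CD62L-high CMPs differ from CD62L-neg CMPs. *Clec7a*, *Clec9a*, *Clec5a*, *Clec12a* and *Clec10a* were higher in CD62L-high CMPs and *Clec4d* was lower, while *Clec4a2*, *Clec4e* and *Clec1b* did not pass the test. A gene was called when its fold change exceeded 2 with an adjusted p below 0.05, in edgeR's quasi-likelihood F test with Benjamini-Hochberg adjustment over 14801 genes. Thus 5 of 9 genes were called higher, where the share among all genes was 5.62%, and 1 of 9 lower, where it was 4.84%. The median log2 fold change of the 9 genes was 3.48, against 0.00881 over all genes.

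Among the receptors with their own SYK-recruiting motif, *Clec7a* showed 32.0, 18.4 and 27.6 CPM in CD62L-high CMPs, against 0, 0.766 and 0 CPM in CD62L-neg CMPs. The populations did not overlap, and the counts were 1140 and 6. Here and below, lack of overlap describes the libraries only, since the share of all genes without overlap is not given. The ratio of the summed levels was 100-fold (95% counting interval 45.9 to 273), and the log2 fold change was 6.61 (SE 0.50, adjusted p = 8.15e-10 by edgeR). All 6 counts came from replicate 2, so without that library the CD62L-neg level was 0 and no fold can be given (adjusted p = 1.77e-09 by edgeR). The log2 fold change was 6.01 without CD62L-neg CMP replicate 1. *Clec9a* reached 11.5, 10.5 and 10.5 CPM in CD62L-high CMPs, against 0.242, 0 and 0 CPM in CD62L-neg CMPs. Its 480 counts stood against 2, a ratio of 126 (95% counting interval 34.8 to 1047). Both counts were in replicate 1, and the adjusted p was 0.00133 by edgeR and 0.00462 without that replicate. *Clec1b* went the other way in level, with 0, 0.508 and 0.124 CPM in CD62L-high CMPs and 2.18, 2.68 and 1.49 CPM in CD62L-neg CMPs. The 2 populations did not overlap for *Clec1b*, but with 10 against 50 counts the log2 fold change of -3.24 (SE 1.35) did not pass the test (adjusted p = 0.115 by edgeR).

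The inhibitory receptor gene *Clec12a* had the most counts of the 10. It stood at 113, 60.6 and 77.7 CPM in CD62L-high CMPs, against 7.99, 3.70 and 2.30 CPM in CD62L-neg CMPs, a log2 fold change of 4.15 (SE 0.28, adjusted p = 1.45e-10 by edgeR). Every CD62L-high library was above every CD62L-neg library. The DAP12-coupled *Clec5a* had 9.72, 7.30 and 8.84 CPM in CD62L-high CMPs, against 1.33, 0.638 and 0.270 CPM in CD62L-neg CMPs (log2 fold change 3.48, SE 0.38, adjusted p = 2.70e-07 by edgeR). In both genes CD62L-neg CMP replicate 1 was the highest of its population. Without it the log2 fold changes were 4.79 for *Clec12a* and 4.20 for *Clec5a*. *Clec10a*, the galactose-type lectin, had 6.48, 4.19 and 4.64 CPM in CD62L-high CMPs, against 0.363, 0.128 and 0 CPM in CD62L-neg CMPs (log2 fold change 4.83, SE 0.94, adjusted p = 0.000509 by edgeR). Its CD62L-neg level rests on 4 counts, and the log2 fold change was 6.07 without CD62L-neg CMP replicate 1.

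The genes of the Fc receptor gamma chain group behaved unlike these. *Clec4d* had 1.11, 2.60 and 2.29 CPM in CD62L-high CMPs, against 5.33, 10.5 and 6.76 CPM in CD62L-neg CMPs (log2 fold change -1.90, SE 0.51, adjusted p = 0.00983 by edgeR). The libraries did not overlap, but the call was lost without CD62L-high CMP replicate 1 (adjusted p = 0.0625) and without CD62L-neg CMP replicate 2 (adjusted p = 0.0658). *Clec4e* had 5.93, 7.81 and 11.9 CPM in CD62L-high CMPs and 11.02, 5.62 and 4.87 CPM in CD62L-neg CMPs, which overlapped (log2 fold change 0.25, SE 0.32). The inhibitory *Clec4a2* was near the floor in both, with 26 counts in CD62L-high CMPs and 1 in CD62L-neg CMPs (adjusted p = 0.0536 by edgeR and 0.0302 by DESeq2).

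Marker lists of other cell types also differed between these CMPs. Of 12 monocyte markers 11 were higher in CD62L-high CMPs, with a summed level of 2214 to 2714 CPM against 76.4 to 148 CPM in CD62L-neg CMPs. Of 10 conventional dendritic cell markers tested 7 were higher, with sums over the 12 listed of 852 to 1168 CPM against 217 to 321 CPM, and *Batf3* was at 0 in CD62L-neg CMPs. Of 13 megakaryocyte and platelet markers tested 12 were lower, with sums over the 14 listed of 34.9 to 37.1 CPM in CD62L-high CMPs against 866 to 1056 CPM in CD62L-neg CMPs, and *Gp6* was at 0 in CD62L-high CMPs. Of 14 neutrophil markers 5 were higher and 0 lower, with sums of 7303 to 8489 CPM in CD62L-high against 897 to 1805 CPM in CD62L-neg CMPs. Of 8 erythroid markers tested 7 were lower in CD62L-high CMPs. Of 6 stem and multipotent markers 1 was higher and 1 lower. *Clec9a* is itself known as a dendritic cell gene and *Clec1b* as a platelet gene. The part of these cell types in the receptor results was not tested.

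The same question was put to GMPs. *Clec7a*, *Clec5a* and *Clec10a* were higher in CD62L-high GMPs than in CD62L-neg GMPs, *Clec4e* was lower, and *Clec12a*, *Clec4a2*, *Clec9a*, *Clec4d* and *Clec1b* did not pass the test. Of the 9 genes tested 3 were called higher, where the share of all genes was 4.49%, and 1 lower, where it was 6.01%. The median log2 fold change was 1.01 for the 9 genes and -0.0372 for all genes.

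*Clec7a* had 72.8, 61.0 and 69.3 CPM in CD62L-high GMPs, against 4.43, 5.34 and 2.32 CPM in CD62L-neg GMPs (log2 fold change 4.06, SE 0.33, adjusted p = 3.53e-09 by edgeR). *Clec5a* had 38.5, 55.0 and 50.8 CPM in CD62L-high GMPs, against 15.7, 12.3 and 17.4 CPM in CD62L-neg GMPs (log2 fold change 1.67, SE 0.26, adjusted p = 5.19e-05 by edgeR). *Clec10a* had 8.003, 4.38 and 5.16 CPM in CD62L-high GMPs, against 0.688, 0.314 and 0.721 CPM in CD62L-neg GMPs (log2 fold change 3.32, SE 0.77, adjusted p = 0.00312 by edgeR). None of the 3 genes had overlapping libraries, for which no share of all genes is given. *Clec4e*, which encodes a receptor for mycobacterial cord factor, ran in the opposite direction. Its level was 6.70, 4.15 and 8.03 CPM in CD62L-high GMPs, against 17.4, 15.6 and 19.2 CPM in CD62L-neg GMPs (log2 fold change -1.46, SE 0.31, adjusted p = 0.00158 by edgeR).

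*Clec12a* stayed at a like level across the GMP fractions, with 161, 151 and 173 CPM in CD62L-high GMPs and 154, 189 and 189 CPM in CD62L-neg GMPs. The libraries overlapped, and the log2 fold change was -0.13 (SE 0.23). *Clec4a2* likewise had 12.7, 10.2 and 16.4 CPM in CD62L-high GMPs and 11.8, 10.8 and 20.8 CPM in CD62L-neg GMPs (log2 fold change -0.14). *Clec9a* was low in both, with 33 counts in CD62L-high GMPs and 15 in CD62L-neg GMPs, all 15 in replicate 1.

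No receptor gene was called between CD62L-high and CD62L-int GMPs by edgeR, nor by DESeq2, where the shares of all genes were 0.331% higher and 0.885% lower, and 1 gene had an unadjusted p under 0.05. That gene was *Clec7a*, with 72.8, 61.0 and 69.3 CPM in CD62L-high GMPs and 38.7, 39.8 and 35.4 CPM in CD62L-int GMPs. Its libraries did not overlap, and the log2 fold change was 0.83 (adjusted p = 0.157 by edgeR). The libraries of *Clec10a* (4.38 to 8.003 CPM in CD62L-high against 1.61 to 4.09 CPM in CD62L-int GMPs) and *Clec4e* (4.15 to 8.03 against 8.25 to 9.32 CPM) did not overlap either. Against CD62L-neg GMPs, CD62L-int GMPs had more *Clec7a* (log2 fold change 3.23, SE 0.33, adjusted p = 2.49e-07 by edgeR) and more *Clec5a* (1.54, SE 0.26, adjusted p = 0.000331 by edgeR), with *Clec5a* at 38.0, 46.5 and 47.5 CPM in CD62L-int GMPs. These 2 of 9 compare with 1.84% of all genes. *Clec10a* averaged 2.97 ± 1.26 CPM in CD62L-int GMPs and 0.574 ± 0.226 CPM in CD62L-neg GMPs (SD, n = 3 each), with a log2 fold change of 2.35 (adjusted p = 0.0684 by edgeR). It was called in 5 of 13 alternatives, DESeq2 among them. No receptor gene was called lower by edgeR or DESeq2, where the share of all genes was 2.48%. *Clec4e* was the 1 gene lower at an unadjusted p under 0.05, at 8.25, 9.23 and 9.32 CPM in CD62L-int GMPs against 17.4, 15.6 and 19.2 CPM in CD62L-neg GMPs (log2 fold change -0.96, adjusted p = 0.0657 by edgeR). Its libraries did not overlap.

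Monocyte markers moved across the GMP fractions in the direction of *Clec7a*, *Clec5a* and *Clec10a*, and opposite to *Clec4e*. All 12 were called higher in CD62L-high than in CD62L-neg GMPs, and their summed level was 4300 to 4995 CPM in CD62L-high, 2551 to 2745 CPM in CD62L-int and 368 to 410 CPM in CD62L-neg GMPs, with no marker at 0. The neutrophil markers ran at 19743 to 25757 CPM in CD62L-high GMPs and 24571 to 26593 CPM in CD62L-neg GMPs, with 1 of 14 called higher and 4 lower. Macrophage markers summed to 15.2 to 22.2 CPM in CD62L-high GMPs, with *C1qa*, *C1qb*, *Mertk*, *Marco* and *Timd4* at 0, and to 45.0 to 59.4 CPM in CD62L-neg GMPs, with *C1qb*, *Marco* and *Timd4* at 0. Only 3 of these 8 markers were tested, and they did not move together, with 1 called higher and 1 lower in CD62L-high GMPs. Their part in the receptor results was not tested.

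**Figure D2:**
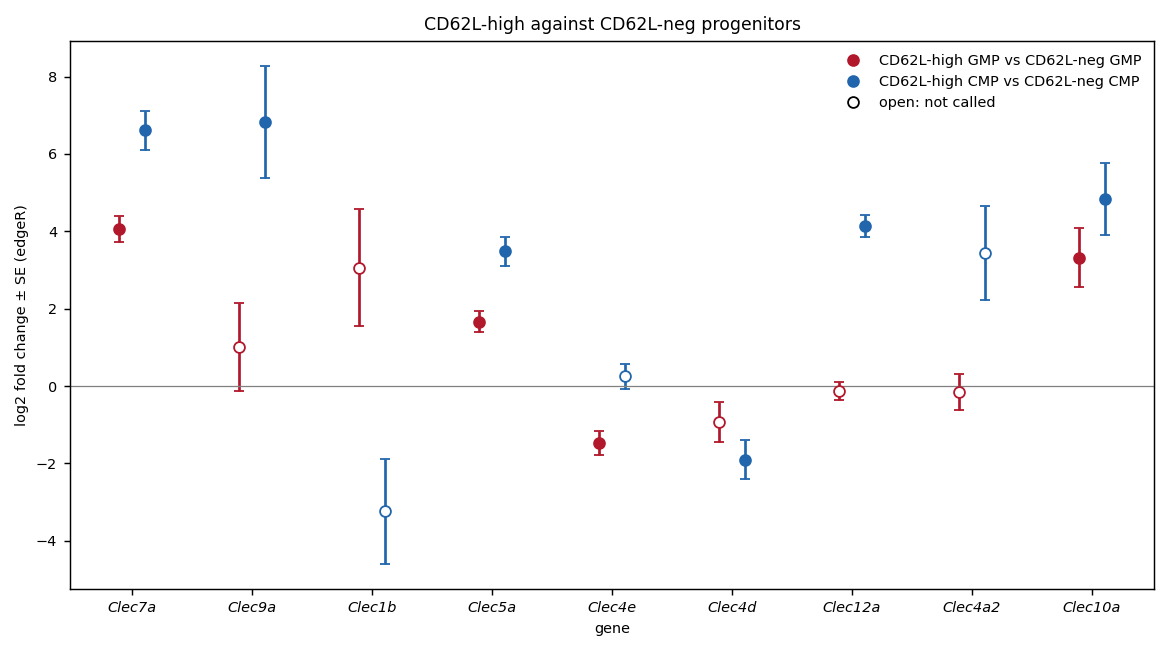
Log2 fold change (vertical axis) of CD62L-high over CD62L-neg cells for the 9 tested receptor genes (horizontal axis), in GMPs and in CMPs. Points are edgeR estimates, bars are ± 1 SE and filled points were called at adjusted p under 0.05 and fold over 2. *Clec12a* lay at -0.13 in GMPs and 4.15 in CMPs, and *Clec4e* at -1.46 in GMPs and 0.25 in CMPs.

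Whether the CD62L effect itself differed between the stages was tested as the log2 fold change in GMPs minus that in CMPs. It was lower in GMPs for 4 of 9 receptor genes, where 5.05% of all genes were called lower at an adjusted p under 0.05, and DESeq2 called 5 lower and 1 higher. *Clec12a* had the largest called difference, -4.28 (SE 0.36, adjusted p = 4.23e-08 by edgeR). Its CMP fractions stood far apart and its GMP fractions overlapped. The difference was -2.55 (SE 0.70, adjusted p = 0.0242) for *Clec7a*, which was higher in CD62L-high cells at both stages. For *Clec5a*, also higher in CD62L-high cells at both stages, it was -1.81 (SE 0.48, adjusted p = 0.0190), and for *Clec4e* it was -1.72 (SE 0.45, adjusted p = 0.0170). *Clec12a* kept its call when any one library was left out, and its difference was -4.93 without CD62L-neg CMP replicate 1. The call of *Clec7a* was lost without replicate 1 (-1.95, adjusted p = 0.107) or 3 of CD62L-neg CMPs, replicate 1 of CD62L-high CMPs or replicate 2 of CD62L-neg GMPs, with adjusted p up to 0.114, and without replicate 2 of CD62L-neg CMPs it rested on a level of 0 (adjusted p = 0.00111). For *Clec5a* it was lost without CD62L-neg CMP replicate 2 or 3 (adjusted p up to 0.102), and the difference was -2.53 without replicate 1. For *Clec4e* it was lost without replicate 2 or 3 of CD62L-neg CMPs, replicate 3 of CD62L-high CMPs or replicate 2 of CD62L-high GMPs (adjusted p up to 0.0751). *Clec9a* (-5.82, adjusted p = 0.0668) and *Clec1b* (6.30, adjusted p = 0.0650) had larger estimates and did not pass the test. *Clec9a* had 2 counts in CD62L-neg CMPs and 15 in CD62L-neg GMPs. *Clec1b* had 2 in CD62L-neg GMPs and 10 in CD62L-high CMPs.

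CD62L-neg GMPs were also compared with bulk GMPs. They had less *Clec7a* (4.03 ± 1.55 against 42.1 ± 1.80 CPM, SD, n = 3 each), a log2 fold change of -3.38 (SE 0.33, adjusted p = 2.26e-07 by edgeR). *Clec5a* was lower too, at 15.1 ± 2.57 CPM in CD62L-neg GMPs against 39.8 ± 6.82 CPM in bulk GMPs (log2 fold change -1.40, SE 0.26, adjusted p = 0.00105 by edgeR). *Clec10a* had 22 counts in CD62L-neg GMPs against 159 in bulk GMPs (log2 fold change -2.79, SE 0.76, adjusted p = 0.0256 by edgeR), a call that was lost in 5 of the 6 fits that left out 1 library of either population, with adjusted p from 0.0676 to 0.129. Among these fits the call stood without bulk GMP replicate 2. These 3 of 9 genes called lower compare with 2.18% of all genes. No receptor gene was called higher by edgeR, where the share of all genes was 1.89%, while *Clec4a2* had an unadjusted p under 0.05 and was called by DESeq2. It had 11.8, 10.8 and 20.8 CPM in CD62L-neg GMPs, against 4.999, 5.02 and 6.04 CPM in bulk GMPs, without overlap (log2 fold change 1.43, adjusted p = 0.0860 by edgeR and 0.0114 by DESeq2).

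GMPs were next set against CMPs at matched CD62L level and in bulk. These comparisons share their libraries with those above. *Clec7a*, *Clec5a* and *Clec4a2* were higher in GMPs in all 3 comparisons, and *Clec12a* in 2 of them. In bulk 4 of 9 genes were called higher, where the share of all genes was 4.19%, and none lower, where it was 7.30% and where 0 genes had an unadjusted p under 0.05 and DESeq2 called 0. In CD62L-high cells 3 of 9 were called higher and 1 lower, against 2.53% and 5.11% of all genes. In CD62L-neg cells 5 were called higher and 1 lower, against 6.49% and 6.11% of all genes. The 1 called lower was *Clec1b*, which passed the filter on low counts only through CD62L-neg CMPs, where it was high. The median log2 fold changes of the 9 genes were 1.68, 0.951 and 2.06 in bulk, CD62L-high and CD62L-neg cells, against -0.00189, -0.0248 and -0.00989 over all genes.

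*Clec5a*, of the activating receptors, had 46.7, 39.8 and 33.02 CPM in bulk GMPs, against 1.88, 1.196 and 4.05 CPM in bulk CMPs (log2 fold change 3.95, SE 0.33, adjusted p = 8.06e-09 by edgeR, and 4.59 without bulk CMP replicate 3). In CD62L-high cells its log2 fold change was 2.48 (SE 0.27, adjusted p = 7.58e-07) and in CD62L-neg cells 4.29 (SE 0.38, adjusted p = 7.15e-09, and 5.0 without CD62L-neg CMP replicate 1), both by edgeR. *Clec7a* differed by 1.96 on the log2 scale in bulk (SE 0.31, adjusted p = 7.75e-05), 1.38 in CD62L-high cells (SE 0.29, adjusted p = 0.00172) and 3.93 in CD62L-neg cells (SE 0.58, adjusted p = 1.69e-05). The CD62L-neg value rests on 155 counts in GMPs against 6 in CMPs, and was 3.31 without CD62L-neg CMP replicate 1. Without replicate 2 the CD62L-neg CMPs were at 0 and no fold can be given.

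The inhibitory genes were set apart by stage as well. *Clec4a2* had 12.7, 10.2 and 16.4 CPM in CD62L-high GMPs, against 0.0790, 0.889 and 0.680 CPM in CD62L-high CMPs (log2 fold change 4.50, SE 0.59, adjusted p = 8.52e-06 by edgeR). In bulk it had 4.999, 5.02 and 6.04 CPM in GMPs, against 0, 1.196 and 0 CPM in CMPs, which is a ratio of 24.7 (95% counting interval 9.51 to 91.5) from 210 against 4 counts. Those 4 counts came from bulk CMP replicate 2, without which bulk CMPs were at 0 (adjusted p = 3.72e-06 by edgeR). The log2 fold change was 4.46 (SE 0.79, adjusted p = 0.000238), and 3.71 or 3.69 without bulk CMP replicate 1 or 3. In CD62L-neg cells 552 counts in GMPs stood against 1 in CMPs, a ratio of 339 (95% counting interval 60.5 to 13399), and that count was in replicate 3 of the CMPs (adjusted p = 3.11e-07 by edgeR, and 6.99e-06 without that library). CMPs of every kind were thus near 0 for *Clec4a2*, and the 4 GMP populations ranged from 5.35 to 14.5 CPM in mean.

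*Clec12a* averaged 177 ± 20.03 CPM in CD62L-neg GMPs and 4.66 ± 2.97 CPM (n = 3 each, SD) in CD62L-neg CMPs, a log2 fold change of 5.23 (SE 0.29, adjusted p = 4.46e-12 by edgeR, and 5.86 without CD62L-neg CMP replicate 1). In bulk it averaged 138 ± 6.88 CPM in GMPs and 43.3 ± 5.40 CPM in CMPs (log2 fold change 1.68, SE 0.24, adjusted p = 1.99e-05 by edgeR). In CD62L-high cells the log2 fold change of 0.95 (SE 0.23, adjusted p = 0.00660 by edgeR) stayed under the fold threshold. *Clec4e* was higher in CD62L-neg GMPs, at 17.4, 15.6 and 19.2 CPM, than in CD62L-neg CMPs, at 11.02, 5.62 and 4.87 CPM (log2 fold change 1.27, SE 0.32, adjusted p = 0.00492 by edgeR).

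*Clec9a* and *Clec1b* were called lower in GMPs in 1 comparison each. *Clec9a* had 0.653, 0.222 and 1.47 CPM in CD62L-high GMPs, against 11.5, 10.5 and 10.5 CPM in CD62L-high CMPs (log2 fold change -3.76, SE 1.09, adjusted p = 0.0229 by edgeR). The libraries stood far apart, yet the call was lost in 5 of 6 fits that left out 1 library of either population, with adjusted p from 0.0588 to 0.0892, and it stood without CD62L-high GMP replicate 3 (log2 fold change -4.64, adjusted p = 0.0295). *Clec1b* had 2 counts in CD62L-neg GMPs and 50 in CD62L-neg CMPs, which is 40.8-fold lower in GMPs (95% counting interval 10.7 to 346, adjusted p = 0.0227 by edgeR). It passed the filter on low counts only through its 18, 21 and 11 counts in the CD62L-neg CMP libraries, so this call is not independent support. Its call was lost in 5 of 6 such fits, with adjusted p from 0.0539 to 0.1, and stood without CD62L-neg CMP replicate 3. *Clec4d* narrowly missed the threshold in CD62L-neg cells, at 3.59, 3.54 and 1.52 CPM in GMPs against 5.33, 10.5 and 6.76 CPM in CMPs, without overlap (log2 fold change -1.38, adjusted p = 0.0514 by edgeR). It was called in 6 of 13 alternatives, and DESeq2 called 2 genes lower there.

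Of 10 dendritic cell markers tested 6 were lower in CD62L-high GMPs than in CD62L-high CMPs, with a sum over the 12 listed of 319 to 354 CPM against 852 to 1168 CPM, and *Xcr1* and *Cadm1* were at 0 in CD62L-high GMPs. Of 13 megakaryocyte and platelet markers tested 12 were lower in CD62L-neg GMPs than in CD62L-neg CMPs, with sums over the 14 listed of 125 to 163 CPM against 866 to 1056 CPM and with *Ppbp* and *Gp6* at 0 in CD62L-neg GMPs. Of 14 neutrophil markers 10 were higher in CD62L-neg GMPs than in CD62L-neg CMPs, with sums of 24571 to 26593 CPM against 897 to 1805 CPM. Their part in the receptor results was not tested.

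**Figure D3:**
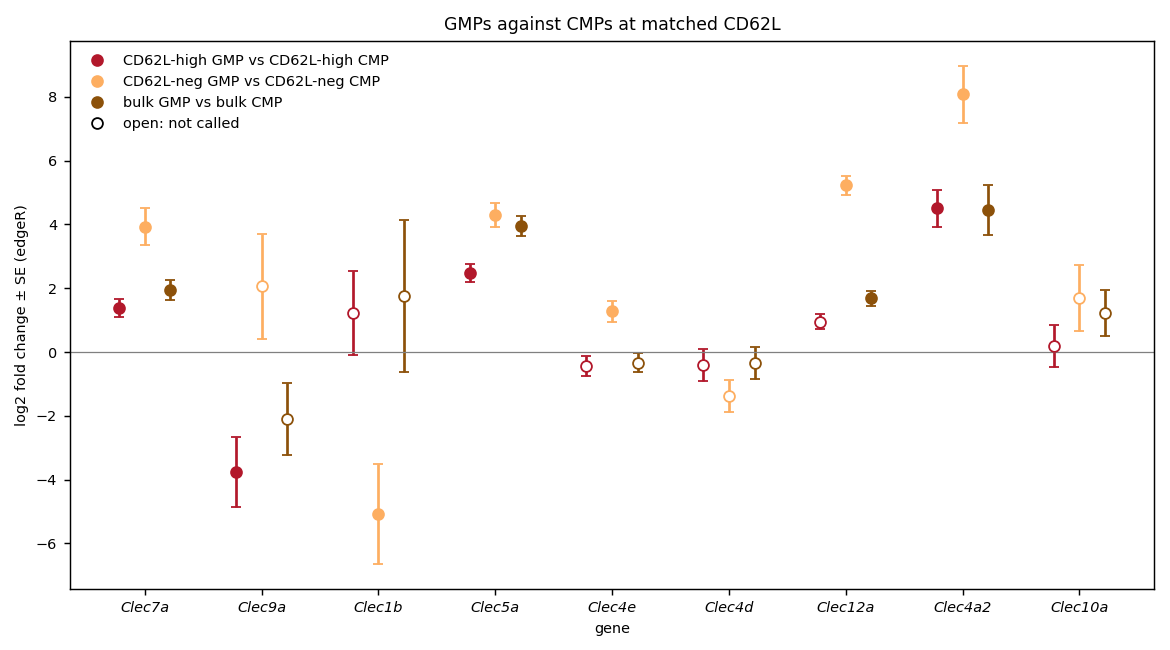
Log2 fold change (vertical axis) of GMPs over CMPs for the 9 tested receptor genes (horizontal axis), among CD62L-high, CD62L-neg and bulk cells. Points are edgeR estimates, bars are ± 1 SE and filled points were called at adjusted p under 0.05 and fold over 2. *Clec5a* lay at 2.48, 4.29 and 3.95, and *Clec9a* at -3.76 in CD62L-high cells.

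The order of the 7 populations was set for each gene by mean level, and neighbours in it were tested. Of 54 neighbouring pairs 10 differed at an adjusted p under 0.05 by edgeR, all in *Clec7a*, *Clec5a*, *Clec12a* or *Clec4a2*. *Clec7a* ran from CD62L-high GMPs (67.7 ± 6.07 CPM) through bulk GMPs (42.1), CD62L-int GMPs (38.0), CD62L-high CMPs (26.0), bulk CMPs (10.8) and CD62L-neg GMPs (4.03) to CD62L-neg CMPs (0.255). No step among the first 4 was told apart. CD62L-high CMPs were above bulk CMPs (adjusted p = 0.0125, where 7.95% of all genes differed), bulk CMPs above CD62L-neg GMPs (0.00348, with 22.5%) and CD62L-neg GMPs above CD62L-neg CMPs (1.69e-05, with 21.5%).

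*Clec5a* was ordered otherwise, with every GMP population above every CMP population. CD62L-high (48.1 CPM), CD62L-int (44.0) and bulk GMPs (39.8) did not differ beyond their spread. Bulk GMPs were above CD62L-neg GMPs (adjusted p = 0.00105, where 6.33% of all genes differed) and these above CD62L-high CMPs at 8.62 CPM (0.0433, with 13.6%). CD62L-high CMPs were above bulk CMPs at 2.37 CPM (0.00134), and bulk CMPs above CD62L-neg CMPs at 0.747 CPM (0.0150, with 9.95%). *Clec12a* kept the GMP populations together, from 138 to 181 CPM, and did not separate bulk GMPs from CD62L-high CMPs (adjusted p = 0.0589). Bulk CMPs were below CD62L-high CMPs for *Clec12a* (0.0134) and far above CD62L-neg CMPs (4.21e-08). For *Clec4a2* the step between bulk GMPs and CD62L-high CMPs was told apart (0.000693, where 7.05% of all genes differed). No neighbouring pair of *Clec9a*, *Clec10a*, *Clec4d*, *Clec4e* or *Clec1b* passed the test. Some pairs did not overlap, but neighbours were picked by their means and no share of all genes is given. *Clec9a*, for example, had 11.5, 10.5 and 10.5 CPM in CD62L-high CMPs and 2.68, 2.09 and 1.31 CPM in bulk CMPs (adjusted p = 0.162 by edgeR).

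Bulk cells were set beside their fractions, of which CD62L-int CMPs were not sequenced. The mean of bulk CMPs lay outside both CD62L-high and CD62L-neg CMPs for 2 of the 9 genes, as it did above them for 31.1% and below them for 32.1% of all genes. *Clec4e* was above, at 20.8, 16.4 and 26.4 CPM in bulk CMPs, against no more than 11.9 CPM in any library of the fractions. It was higher in bulk CMPs by 1.32 on the log2 scale than in CD62L-high CMPs (adjusted p = 0.00945) and by 1.57 than in CD62L-neg CMPs (adjusted p = 0.00207), both by edgeR. *Clec1b* was below, with 0 counts in bulk CMPs, against 10 in CD62L-high and 50 in CD62L-neg CMPs. Bulk GMPs lay outside their 3 fractions for 4 genes, *Clec4d* above and *Clec12a*, *Clec4a2* and *Clec1b* below, where 19.9% of all genes were above and 18.4% below.

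In the cluster of *Clec12a*, *Clec1b*, *Clec9a* and *Clec7a* the correlation between pairs over the 21 libraries ran from -0.71 (*Clec12a* with *Clec1b*) to 0.76 (*Clec12a* with *Clec7a*), and among *Clec4a2*, *Clec4d* and *Clec4e* from -0.48 to 0.03. Pairs outside these clusters ran from -0.75 to 0.87 (*Clec5a* with *Clec12a*), and their median of -0.07 was that of the *Clec12a* to *Clec7a* cluster. The libraries fall into 7 populations, so these values describe population differences and carry no p. Between the members, *Clec12b* had 0 counts in every library, *Clec1a* at most 5 per population and *Clec4b2* at most 47. *Clec9a* and *Clec12a* were thus high in CD62L-high CMPs while *Clec12b* and *Clec1a*, which lie among them, were at 0 there.

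**Figure D4:**
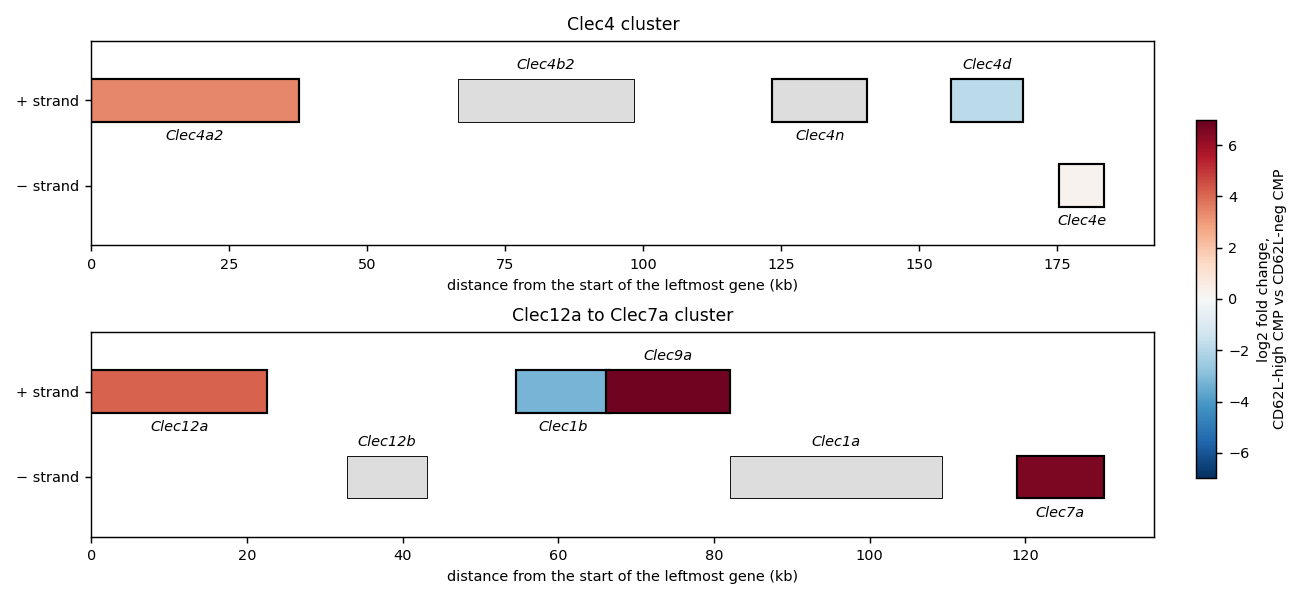
Maps of the 2 receptor clusters of chromosome 6, with distance from the first gene in kb on the horizontal axis. Boxes are genes, drawn by strand and to scale, and colour gives the log2 fold change of CD62L-high over CD62L-neg CMPs, with grey for genes that are not among the 10 or were not tested. *Clec7a* at 6.61 and *Clec1b* at -3.24 lie in the same 130.1 kb.

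For the 6 receptor genes that reached 10 CPM in some population, the 3 genes with the closest pattern were found by Pearson r over 21 libraries among 8785 genes. For *Clec7a* they were *Met* (0.986), the receptor of hepatocyte growth factor, *Cfp* (0.984), which encodes properdin, and *F13a1* (0.975), a coagulation factor subunit that is also among the monocyte markers. *Met* averaged 197 CPM in CD62L-high and 11.9 CPM in CD62L-neg GMPs, and 78.4 CPM in CD62L-high and 2.24 CPM in CD62L-neg CMPs. For *Clec5a* they were *Hp* (0.981), which encodes haptoglobin, *Kctd20* (0.980) and *App* (0.979), the amyloid precursor protein. For *Clec12a* they were the hexokinase gene *Hk3* (0.987), *Atp8b4* (0.984) and *Dtx4* (0.983). *Hk3* averaged 337 CPM in CD62L-high and 290 CPM in CD62L-neg GMPs, and 199.6 CPM in CD62L-high and 21.5 CPM in CD62L-neg CMPs.

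*Clec9a* was followed most closely by *Ifi205* (0.915), *Plbd1* (0.910) and *Coro2a* (0.878). *Plbd1* averaged 38.1 CPM in CD62L-high and 0.323 CPM in CD62L-neg CMPs, and 0.535 to 3.26 CPM in the GMP populations. *Clec4a2* was followed by *Atrn* (0.968), *Gsr* (0.965), which encodes glutathione reductase, and *Abca13* (0.964), at 18.0 to 30.0 CPM in GMP populations and at most 0.546 CPM in CMP populations. *Clec4e* had no close match, with *Spry2* (0.785) and *Vegfa* (0.775) among the nearest 3. With a pseudocount of 4 in place of 1 CPM, 12 of the 18 genes found were again among the nearest 3.

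The partners through which these receptors signal were followed as a list of 25 genes, of which 24 passed the filter. *Pdpn*, the ligand of CLEC-2, had 0 counts in all libraries. In CD62L-high against CD62L-neg CMPs 8 of 24 were called higher, where the share of all genes was 5.62%. In CD62L-high against CD62L-neg GMPs 7 were called higher, where it was 4.49%. The adaptor gene *Fcer1g* averaged 161 ± 67.8 CPM in CD62L-high GMPs and 28.8 ± 8.43 CPM in CD62L-neg GMPs, a log2 fold change of 2.48 (adjusted p = 4.04e-08 by edgeR). In CMPs it averaged 61.9 ± 6.46 CPM in CD62L-high and 10.6 ± 2.10 CPM in CD62L-neg cells, a log2 fold change of 2.54 (adjusted p = 5.46e-08 by edgeR). Its partner receptor genes *Clec4e* and *Clec4d* were not called higher in CD62L-high cells at either stage. *Tyrobp*, the adaptor gene of *Clec5a*, was higher by 2.11 on the log2 scale in CD62L-high GMPs (adjusted p = 1.68e-06) and by 3.35 in CD62L-high CMPs (adjusted p = 8.77e-09), both by edgeR, and the effect differed between the stages by -1.24 (adjusted p = 0.0466).

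Downstream, *Syk* was present in all populations and lower in CD62L-high CMPs (175 ± 13.3 CPM) than in CD62L-neg CMPs (316 ± 14.5 CPM), with a log2 fold change of -0.86 (adjusted p = 1.04e-05 by edgeR) that is under the fold threshold. *Card9*, which links SYK to NF-kB, was higher in CD62L-high CMPs (58.8 ± 3.17 CPM) than in CD62L-neg CMPs (15.7 ± 5.07 CPM), with a log2 fold change of 1.90 (adjusted p = 0.000249 by edgeR). In GMPs *Card9* differed by -0.06 on the log2 scale, and the stages differed by -1.96 (adjusted p = 0.00866 by edgeR). The other partners called higher included *Malt1*, *Prkcd*, *Ptpn6* and *Vav3* in CD62L-high CMPs, and in CD62L-high GMPs *Malt1*, *Prkcd*, *Lyn*, *Inppl1* and *Rel*. *Ptpn6* encodes SHP-1, the phosphatase that CLEC12A recruits, and averaged 208 CPM in CD62L-high and 102 CPM in CD62L-neg CMPs. In bulk GMPs against bulk CMPs 2 partners were called higher, *Fcer1g* and *Card9*, and 4 lower, where the shares of all genes were 4.19% and 7.30%.

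Other genes of the C-type lectin fold numbered 40, of which 19 passed the filter. In CD62L-high against CD62L-neg CMPs 6 were called higher and 1 lower, against 5.62% and 4.84% of all genes. In GMPs 8 were called higher and 3 lower, against 4.49% and 6.01%. *Klrb1f* was higher in CD62L-high CMPs (12.4 ± 0.677 CPM) than in CD62L-neg CMPs (0.368 ± 0.525 CPM, adjusted p = 1.20e-06 by edgeR), and in CD62L-high GMPs (23.0 ± 1.30 CPM) than in CD62L-neg GMPs (5.34 ± 1.11 CPM, adjusted p = 0.000958 by edgeR). *Olr1*, the scavenger receptor LOX-1, ran like *Clec4e* in the GMP fractions, at 4.89 ± 1.64 CPM in CD62L-high GMPs and 27.3 ± 6.997 CPM in CD62L-neg GMPs (log2 fold change -2.48, adjusted p = 0.000291 by edgeR). *Cd72* was lower in CD62L-high GMPs (0.0694 CPM) than in CD62L-neg GMPs (10.6 CPM, adjusted p = 2.32e-07 by edgeR), and *Cd69* was lower in CD62L-high cells of both stages. *Mgl2*, the paralog of *Clec10a*, averaged 14.99 ± 4.78 CPM in CD62L-high GMPs and 1.95 ± 1.18 CPM in CD62L-high CMPs (log2 fold change 2.92, adjusted p = 7.11e-05 by edgeR), where *Clec10a* averaged 5.84 ± 1.91 CPM and 5.10 ± 1.21 CPM in the same populations.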

How the data were processed

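RNA of sorted progenitors was sequenced by the authors with a low-input SMART kit (the labels and the study's methods name different versions). Per the labels, reads went through bcl2fastq, Trim Galore, HISAT2 (mm10) and HTSeq, with versions not given in the sources used here. The deposited values are raw HTSeq counts per Ensembl gene, with no normalization, for 47643 genes, of which 99.12% matched a symbol in the annotation. Whether counting used strand is not given in the sources used here. The study left out a bulk CMP sample for low mapping, and which one is not given in the sources used here. All deposited bulk CMP libraries were fitted here, so the bulk CMP levels and calls may include that sample.

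From these counts, all 21 libraries were fitted together in edgeR 4.0.16 (R 4.3.3): filterByExpr (14801 genes), TMM factors (0.545 to 1.1), quasi-likelihood F test and Benjamini-Hochberg adjustment over all genes. CPM are counts scaled by TMM-adjusted library size. SE is the log2 fold change divided by the square root of F. Libraries held 6145834 to 15263573 counts, so genes near 0 rest on a few counts, and intervals there are exact Poisson or conditional binomial at 95%. The chi-square of replicate pairs per gene was 6.07 to 186 (21 pairs), above sampling noise, so every library counted once. No pairing by replicate number was seen (same-number correlations of deviations -0.0746 to 0.057). This check runs over all tested genes and could miss a weak pairing.

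The receptor genes and the lists were chosen with earlier results of these data known. Named beside the 10 genes were, by rule, the 3 genes of most similar pattern for receptors reaching 10 CPM, the first 4 signalling partners, called list members and genes lying between members. Some genes that this rule names are not reported here. Promoters are from RefSeq, and the proteins were not used here. The steps were tested on simulated data. Alternatives were DESeq2 1.42.0, its size factors, no filter, fits of the populations compared only, the 3 abundant gene models removed, a replicate block and leaving out libraries.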

Additional observations from a re-analysis of the deposited data

Results flagged for a closer look

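For 4 receptor genes the effect of CD62L differed between GMPs and CMPs by the test of the difference itself (log2 fold change of CD62L-high over CD62L-neg cells in GMPs minus that in CMPs, edgeR, all 21 libraries). *Clec12a* had a difference of -4.28 (adjusted p = 4.23e-08), from -0.13 in GMPs and 4.15 in CMPs. *Clec7a* had a difference of -2.545 (adjusted p = 0.0242), from 4.06 in GMPs and 6.61 in CMPs, where the CD62L-neg CMP level rests on 6 counts of 1 library. *Clec5a* had a difference of -1.811 (adjusted p = 0.0190), from 1.67 in GMPs and 3.48 in CMPs. *Clec4e* had a difference of -1.715 (adjusted p = 0.0170), from -1.46 in GMPs and 0.25 in CMPs. Over the alternatives and libraries left out, the adjusted p of *Clec7a* ran from 0.000166 to 0.114, that of *Clec5a* from 0.00163 to 0.102 and that of *Clec4e* from 0.00242 to 0.0751.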

How the results depend on the processing

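Of 33 calls of a receptor gene in a comparison, 26 stood under every alternative and left-out library, and 7 were lost in some fit that left out 1 library: *Clec4d* in CMPs, *Clec10a* in CD62L-neg against bulk GMPs, *Clec9a* in CD62L-high cells, *Clec1b* in CD62L-neg cells, and the stage differences of *Clec7a*, *Clec5a* and *Clec4e*. No log2 fold change that was called changed sign in the 1087 alternative values, of which 1025 kept their side of the threshold. The number of genes called between CD62L-high and CD62L-int GMPs was 180, against 294 with DESeq2, 324 without the filter, 71 when only those populations were fitted, and 87 to 263 with a library left out; the lowest counts came without CD62L-int GMP replicate 1 (87), CD62L-high GMP replicate 1 (104) and CD62L-int GMP replicate 3 (115). The number of genes whose CD62L effect differed between the stages was 1088, and 801 to 1742 with a library left out, the highest without bulk CMP replicate 2. The number of receptor genes with such a difference was 4, and 1 to 6 with a library left out, with 1 without CD62L-neg CMP replicate 3 and 2 without CD62L-neg CMP replicate 2. The population with the highest mean was the same for all 10 genes with DESeq2 size factors and for 9 without bulk CMP replicate 2. The full order of the 7 populations was the same for 10 and for 7 genes.

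With the replicate number as a block, which the check of deviations did not bear out as a pairing, the receptor genes called were 6 in CD62L-high against CD62L-neg CMPs, 4 in CD62L-high against CD62L-neg GMPs, 0 in CD62L-high against CD62L-int GMPs, 3 in CD62L-int against CD62L-neg GMPs, 3 in CD62L-neg against bulk GMPs, 4 in bulk GMPs against bulk CMPs, 4 in CD62L-high GMPs against CD62L-high CMPs and 6 in CD62L-neg GMPs against CD62L-neg CMPs, and 4 for the stage difference. The block moved no count of genes called by over 1.5 times.

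Depth limits *Clec1b*, *Clec9a*, *Clec10a* and *Clec4a2* in the populations where they had few counts, and *Clec4n* in all of them.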
